A study of Mus musculus with 9 samples.

Results

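The comparison described here sets splenic B cells of mice heterozygous for a Kmt2d point mutation (HET) against splenic B cells of wild-type mice (WT). The deposited table holds 3 B cell libraries, and this comparison uses 2 of them, 1 for each genotype. A library means the pair of table columns of a genotype, so neither side has a replicate and no value below tests the genotypes. Regions of the autosomes were compared where each of the 2 libraries had 30 CpG reads or more, where a CpG read is 1 read covering 1 CpG. They comprise 19400 of 20665 gene ends, 18338 of 19280 gene bodies, 64290 of 67892 low-methylated regions and 463541 of 479304 tiles of 5 kb.

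Bisulfite sequencing reads DNA methylation base by base, since only cytosines without methylation are converted by the treatment and read as thymine. Most CpGs of a mammalian genome are methylated, whereas active promoters and CpG islands are largely free of methylation, and distal regulatory elements appear as short stretches of low methylation. KMT2D is a histone methyltransferase that places monomethylation on lysine 4 of histone H3 at enhancers and is often mutated in B cell lymphoma. The DNA methyltransferases that set methylation read the unmodified tail of histone H3 at this lysine. In blood cells, genes that define a lineage usually lose methylation in that lineage and keep it in the others.

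The mutation replaces adenine by thymine on chromosome 15 at position 98835228 and changes 1 amino acid of KMT2D from isoleucine to asparagine (Ile5482Asn). WT carries no copy, HET is heterozygous, and a library of homozygous B cells (HOM) is given beside them for its levels only. Mice received no treatment according to the labels, and their strain, age and sex are not stated by the sources used here. B cells of all groups were taken from the spleen by magnetic depletion of other cells. The columns of HET and HOM, but not those of WT, are also named for ENU, which is used as a chemical mutagen. The labels list 2 B cell samples for each genotype, and whether a column pair holds 1 of them or both pooled is not stated there either. Samples of blood were not analysed here.

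WT held 200824258 CpG reads, HET 282430649 and HOM 215454437, which is 9.18, 12.9 and 9.85 reads at the average CpG. Over all CpGs methylation came to 76.0% for WT, 75.6% for HET and 72.3% for HOM. On the mitochondrial chromosome, which is nearly free of methylation, it was 0.492%, 0.607% and 0.556%. Intervals below are 95% counting intervals. They cover counting error alone, and CpGs that share a read enter them as if independent.

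The sequences of 4 promoters are shown: those of the gene ends with the greatest difference in each direction, and those of a B cell and a T cell gene named in the results, of which the B cell promoter did not itself differ detectably. Each runs from 250 bases before to 50 bases after the transcription start, 5′ to 3′ on the strand of the gene, from RefSeq on build GRCm38.p6, with its CpGs in capitals. Asb4, which encodes an ankyrin repeat and SOCS box protein that recruits substrates to a ubiquitin ligase, and Atp6v0e2, which encodes a membrane subunit of the proton pump of lysosomes, had the greatest differences in each direction. Cd79a encodes a signalling chain of the B cell receptor and Cd3e a signalling chain of the T cell receptor. The windows are chr6:5383136-5383435 on the plus strand for Asb4, chr6:48537319-48537618 on the plus strand for Atp6v0e2, chr7:24897247-24897546 on the plus strand for Cd79a and chr9:45009562-45009861 on the minus strand for Cd3e.
Asb4: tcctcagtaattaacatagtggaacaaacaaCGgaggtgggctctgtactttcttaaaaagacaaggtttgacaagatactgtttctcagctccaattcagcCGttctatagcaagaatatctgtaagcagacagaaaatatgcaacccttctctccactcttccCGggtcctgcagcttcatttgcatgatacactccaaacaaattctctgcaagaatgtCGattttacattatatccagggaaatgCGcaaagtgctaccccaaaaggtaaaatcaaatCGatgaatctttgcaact
Atp6v0e2: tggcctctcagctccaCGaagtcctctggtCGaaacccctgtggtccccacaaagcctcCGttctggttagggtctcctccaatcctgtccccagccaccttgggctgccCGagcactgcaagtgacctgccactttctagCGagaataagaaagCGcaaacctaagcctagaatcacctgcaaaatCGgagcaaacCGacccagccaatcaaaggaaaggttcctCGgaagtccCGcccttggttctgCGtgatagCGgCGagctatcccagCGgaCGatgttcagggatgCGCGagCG
Cd79a: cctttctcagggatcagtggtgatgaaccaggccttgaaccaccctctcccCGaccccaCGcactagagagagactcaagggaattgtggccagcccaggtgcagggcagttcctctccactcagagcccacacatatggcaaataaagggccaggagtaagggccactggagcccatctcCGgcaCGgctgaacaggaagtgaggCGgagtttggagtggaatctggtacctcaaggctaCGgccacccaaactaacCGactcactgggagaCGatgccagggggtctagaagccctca
Cd3e: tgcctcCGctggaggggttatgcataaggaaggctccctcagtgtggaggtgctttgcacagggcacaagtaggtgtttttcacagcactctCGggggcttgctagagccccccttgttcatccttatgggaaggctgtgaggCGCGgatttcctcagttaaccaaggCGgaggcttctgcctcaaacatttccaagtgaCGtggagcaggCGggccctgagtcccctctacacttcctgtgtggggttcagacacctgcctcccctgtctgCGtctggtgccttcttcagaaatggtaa

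The 6 CpGs of the Asb4 sequence stood at 31.7% for WT, 63.3% for HET and 76.8% for HOM. HET was thus 31.6 points higher than WT (interval 19.6 to 42.3). The 18 CpGs of the Atp6v0e2 sequence stood at 62% for WT, 1.76% for HET and 18.6% for HOM. The promoter was largely methylated in WT and almost free of methylation in HET, a difference of -60.2 points (interval -66.8 to -52.6). The 8 CpGs of the Cd3e sequence stood at 53.1% for WT, 75.6% for HET and 54.8% for HOM, which put HET 22.5 points above WT (interval 8.36 to 35.2). At the 8 CpGs of the Cd79a sequence the levels were low in each library, at 16.4%, 11.6% and 14.5%. The difference of -4.82 points had an interval that included 0 (-13.0 to 2.38), and the difference at Cd79a described below lay mostly outside this sequence.

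**Figure D1:**
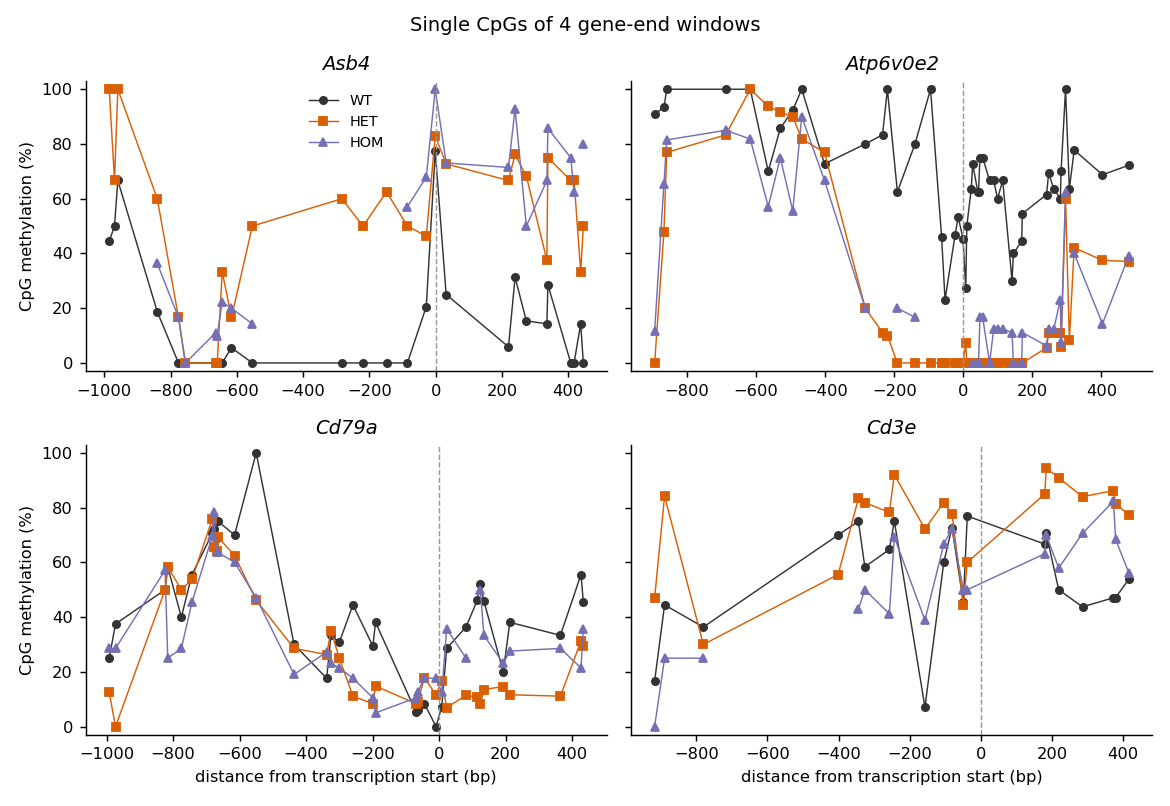
Methylation (%) of single CpGs against the distance (bp) from the transcription start in the gene-end windows of Asb4, Atp6v0e2, Cd79a and Cd3e, 1 line per library (WT, HET and HOM), and CpGs covered by at least 5 reads. In Asb4, HET lay above WT at 24 of the 27 CpGs shown for both and below it at 0, and in Atp6v0e2 HET lay below WT at 43 of 47.

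Kmt2d itself did not differ detectably between the libraries. Over the body of the gene (chr15:98832170-98873576, 986 CpGs) the level was 75.5% for WT, 75.9% for HET and 71.9% for HOM, and HET minus WT was 0.355 points (interval -0.815 to 1.53). The window around its transcription start (chr15:98870705-98872205) was almost unmethylated, at 0.334%, 0.0934% and 0.416%. Its CpG-richer end (chr15:98830669-98832169) stood at 0.366%, 0.561% and 0.997%, with a difference of 0.195 points (interval -0.572 to 0.896). None of these values can check the genotype labels, because the counts carry no sign of the mutation.

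Across the genome HET was slightly less methylated than WT. The mean over 5 kb tiles was 80.6% for WT, 79.9% for HET and 77.3% for HOM, a difference of -0.660 points (interval -0.669 to -0.651). Gene bodies had a mean of 73.3%, 72.8% and 70.1%, a difference of -0.470 points (-0.497 to -0.444). Gene ends were nearly equal, at 34.6% for WT, 34.5% for HET and 32.7% for HOM, a difference of -0.0996 points (-0.142 to -0.0569). Low-methylated regions, found from the mean of WT and HET, had 21.8%, 22.0% and 23.8%, with HET higher by 0.246 points (0.201 to 0.291). All of these shifts were smaller than 1 point. CpGs over 4000 bp from any CpG island stood at 81.7% in WT and 81.0% in HET, a difference of -0.671 points. When HET was scaled so that these CpGs had equal levels in both libraries, the mean difference became 0.186 points at gene ends, 0.133 points in gene bodies and 0.00136 points in tiles. The sign changed in these 3 classes. The near equality in tiles follows largely from the scaling itself, since 164784086 of the 200824258 CpG reads of WT lay over 4000 bp from any CpG island.

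Regions that differed strongly were few, and they lay in both directions. A region is termed called when its levels differed by at least 10 points and its methylated and unmethylated reads gave a Benjamini-Hochberg adjusted p under 0.05 in Fisher's exact test (two-sided). The test compares the libraries, not the genotypes. Among gene ends 280 were called higher (1.44%) and 250 lower (1.29%) in HET, together 2.73% of those tested. Among gene bodies 100 were called higher (0.545%) and 147 lower (0.802%), together 1.35%, and with HET scaled as above the split was 117 higher and 118 lower. Calls took in 4.11% of low-methylated regions, 1253 higher and 1392 lower. Among tiles 2376 were called higher and 5879 lower, 1.78%, and with the scaling 3187 higher and 4793 lower.

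Most of these calls did not hold up once the CpGs of a read were counted as linked or once each CpG was given equal weight. The counts do not show how far neighbouring CpGs of a read agree, so full agreement was assumed. After each count was divided by the CpGs a read is expected to span, 1 gene end was called higher and 1 lower (0.0103% of those tested). The same correction left 14 gene bodies higher and 29 lower (0.234%), 8 low-methylated regions higher and 11 lower (0.0296%), and 82 tiles higher and 481 lower (0.121%). In a separate calculation, chosen after the data had been seen, the level of each CpG was averaged with equal weight, so that reads crowded onto a few CpGs no longer set the level. The difference was then still at least 10 points in the same direction for 169 of the 530 called gene ends, 55 of the 247 gene bodies, 2408 of the 2645 low-methylated regions and 3006 of the 8255 tiles. It took the opposite sign for 63 gene ends, 35 gene bodies, 1 low-methylated region and 510 tiles. With equal weights low-methylated regions, which are short, thus kept nearly all of their calls, and gene bodies kept few. With linked counts the order was the reverse, at 19 of 2645 low-methylated regions and 43 of 247 gene bodies.

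**Figure D2:**
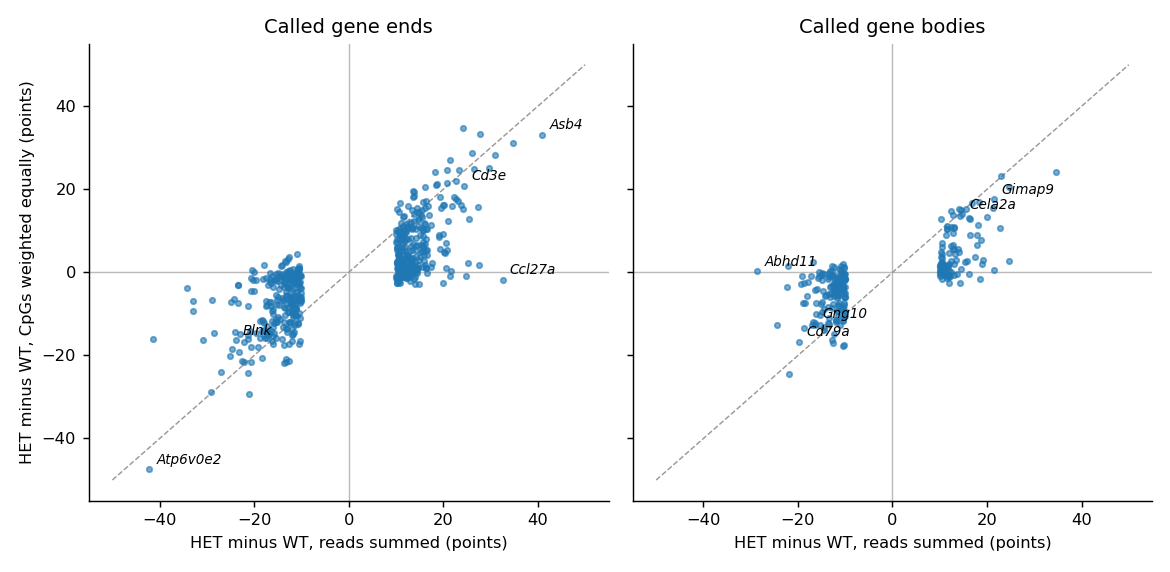
HET minus WT (points) with every CpG weighted equally against the same difference with reads summed, for the 530 called gene ends (left) and the 247 called gene bodies (right); each point is 1 gene and the dashed line marks equal values. Asb4, Atp6v0e2, Cd79a and Gimap9 lie near the dashed line, whereas Abhd11 (-28.6 summed, 0.331 equal) and Ccl27a (32.6 summed, -1.77 equal) lie near 0 on the vertical axis.

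The body of Abhd11, which encodes a mitochondrial hydrolase, is an example. Its level was 56.1% for WT, 27.5% for HET and 45.0% for HOM, the greatest loss among gene bodies with at least 60 reads, -28.6 points with reads summed. The gene divides into an unmethylated part of 35 CpGs and a methylated part of 36 CpGs. The unmethylated part held 163 reads of WT, 678 of HET and 325 of HOM, and the methylated part 293, 304 and 360. Within the unmethylated part the levels were 3.68%, 0.885% and 0.308%, and within the methylated part 85.3%, 86.8% and 85.3%. The libraries therefore differed at Abhd11 in where their reads fell, and with equal weights the difference was 0.331 points. The body of Lars2, which encodes the mitochondrial leucyl-tRNA synthetase, stood at 79.0% for WT, 90.6% for HET and 74.1% for HOM. Without the tile at chr9:123460001-123465000, which held 2449 reads of WT, 592 of HET and 2650 of HOM, the difference of 11.6 points became -1.23 points (interval -2.05 to -0.401).

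At gene ends the regions named here are the 5 greatest differences in each direction among calls with at least 60 reads in both libraries. The Asb4 window (chr6:5382386-5383886, 34 CpGs) stood at 16.7% for WT, 57.7% for HET and 56.7% for HOM, and HET minus WT was 41.0 points (interval 34.5 to 47.0; 33.1 with equal weights). The Atp6v0e2 window (chr6:48536569-48538069, 50 CpGs) stood at 70.3%, 28.1% and 34.4%, a difference of -42.2 points (-47.2 to -36.9; -47.4 with equal weights). Atp6v0e2 lies in a megabase (chr6:48000001-49000000) with 26 CpGs of opposite state in WT and HET, a kind of CpG described further on, and their part in the difference was not tested. HET was on the side of HOM at both genes, and these were the only 2 gene ends still called with linked counts (adjusted p of Fisher's exact test 2.15e-05 and 0.00141). Spaca1, which encodes a membrane protein of the sperm acrosome, had 52.3% for WT, 83.3% for HET and 39.3% for HOM (31.0 points, 28.2 with equal weights). Gm10061 had 95.3%, 66.3% and 80.9% (-29.0 points, -28.8 with equal weights). Pnliprp1, a pancreatic lipase-related gene, had 49.2%, 76.4% and 66.1% (27.3 points, 15.8 with equal weights), but its window does not hold the transcription start, where the difference was -0.808 points. At these 3 genes the libraries lay in different orders, with HET highest at Spaca1 and Pnliprp1 and lowest at Gm10061.

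The other gene ends among the greatest differences shrank to less than 10 points with equal weights. Zdhhc20, a palmitoyltransferase gene, went from -34.2 to -3.66 points, the receptor gene Gpr75 from -33.0 to -6.98, and the olfactory receptor gene Olfr630 from -33.0 to -9.25. Zbtb4, which encodes a protein that binds methylated DNA, went from 27.6 to 1.69 points, and the chemokine gene Ccl27a from 32.6 to -1.77. Windows centred on the transcription start, tested in 15257 genes, had a mean difference of -0.0148 points with an interval that included 0 (-0.0636 to 0.0340), with 202 called higher and 184 lower (2.53%). None of these genes lay on chromosome 18, where 508 gene ends were tested.

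Gene bodies called lower in HET included those of Cd79a, Gng10, Lsm3 and Kdm8. The body of Cd79a (chr7:24897998-24901357, 47 CpGs) stood at 53.5% for WT, 33.7% for HET and 38.2% for HOM, a difference of -19.8 points (-24.3 to -15.1). Gng10, which encodes a gamma subunit of heterotrimeric G proteins, stood at 52.6%, 36.3% and 39.1%, a difference of -16.3 points (-20.3 to -12.3). In both genes HET was below WT and HOM lay nearer to HET. Lsm3, a gene of the RNA-binding ring on spliceosomal U6 RNA, differed by -16.2 points, and Kdm8, a gene of the Jumonji family of dioxygenases, stood at 82.8%, 67.8% and 83.3%, a difference of -14.9 points. With equal weights the differences were -16.7 points for Cd79a, -12.2 for Gng10, -10.1 for Lsm3 and -9.47 for Kdm8. At Kdm8 HET alone was low and HOM stood beside WT.

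Bodies called higher in HET included genes of the Gimap family, small GTPases of immune cells that act in the survival of lymphocytes. Gimap9 (chr6:48676622-48678615) stood at 23.5% for WT, 45.1% for HET and 31.4% for HOM, a difference of 21.5 points (15.03 to 27.7; 17.6 with equal weights). Gimap7 (chr6:48719122-48724135) stood at 53.6%, 66.5% and 57.6%, a difference of 12.9 points (8.58 to 17.3; 10.8 with equal weights). In both HOM lay between WT and HET. Gimap1, chosen after its values had been seen, was also called higher, at 26.9%, 37.4% and 39.0%, but its difference of 10.5 points shrank to 1.98 with equal weights and HOM lay above HET. These genes lie in 1 cluster of chromosome 6, in the same megabase as Atp6v0e2. Cela2a, which encodes a pancreatic elastase, stood at 70.9%, 85.6% and 63.6% (14.7 points, 14.0 with equal weights). Of the 43 gene bodies called with linked counts, 7 also differed by at least 10 points with equal weights: Gng10, Cela2a, Gimap9, Gimap7, Lsm3, Cd79a and Zfp939. Among 17936 genes tested at both places, 4 were called higher at the end and in the body (Cela2a, Fuz, Mxra8, Ccl27a), 3 lower at both (Atp6v0e2, Klrb1c, Cd79a) and 2 higher at the end and lower in the body (Hyal1, Gm28455). With equal weights the bodies of Hyal1 and Klrb1c turned to 1.28 and 1.02 points, and the end of Ccl27a to -1.77. Zfp939, Mxra8, Hyal1 and Gm28455 fall outside the naming rule and were chosen after their values had been seen.

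Calls among gene bodies depended on length. Of 3154 bodies up to 5 kb long, 63 were called higher and 87 lower, whereas of 2280 bodies over 100 kb long 0 were called in either direction. The mean difference was below 0 in every length class, from -0.381 points (-0.426 to -0.336) for bodies of 5 to 20 kb to -0.596 points (-0.615 to -0.578) for those over 100 kb. Gene ends with few CpGs were lower in HET and those with many were not: the mean difference was -0.564 points (-0.764 to -0.363) for windows of up to 15 CpGs and 0.121 points (0.0895 to 0.153) for windows of 61 to 120 CpGs.

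Genes that define B cells were less methylated in HET than in WT. Of the 24 genes of a B cell identity list that matched the annotation, 22 had a lower gene end and 22 a lower gene body in HET. The median difference was -4.37 points at ends and -2.17 points in bodies, beside -0.0238 and -0.466 points over all genes. With equal weights 20 of 24 ends and 24 of 24 bodies were lower, with medians of -3.77 and -2.75 points, against 51.1% of all ends and 64.2% of all bodies. Among ends 0 were called higher and 4 lower, where 1.29% of all ends were called lower. Pooled over the list, gene ends stood at 43.2% for WT, 36.1% for HET and 37.4% for HOM.

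The 4 called ends were those of Blnk, Cd79b, Cd79a and Pou2af1. Blnk, which encodes the adaptor downstream of the receptor, stood at 48.2% for WT, 24.3% for HET and 30.5% for HOM, a difference of -24.0 points (-30.2 to -17.5). Cd79b, the partner chain of Cd79a, stood at 59.5%, 45.6% and 52.8%, a difference of -13.9 points (-21.6 to -5.94). Cd79a itself stood at 38.9%, 26.6% and 32.9% at its end, a difference of -12.3 points (-17.4 to -7.23). Pou2af1, which encodes the coactivator of octamer-binding factors in B cells, stood at 28.4%, 16.3% and 23.9%, a difference of -12.1 points (-18.0 to -6.17). At all 4 genes HET was the lowest library and HOM lay between HET and WT. Each kept a difference beyond 10 points with equal weights, and none was called with linked counts. Other members were lower by less and were not called: the master regulator Pax5 stood at 9.42% in WT and 4.52% in HET at its end, and Irf8, a transcription factor gene of B and myeloid cells, at 9.47% and 2.94%. The 2 ends above 0 were those of Fcmr and Cd37.

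Genes that define T cells were more often higher than lower in HET. Of 24 matched genes, 15 ends were higher in HET and 9 lower, and 18 bodies were higher and 6 lower, where 50.6% of all ends and 59.5% of all bodies were lower. The median differences were 3.94 and 4.11 points. With equal weights 15 of 24 ends and 21 of 24 bodies were higher. Among ends 6 were called higher and 0 lower, where 1.44% of all ends were called higher, and 5 of the 6 kept at least 10 points with equal weights. With linked counts 0 ends and 0 bodies of the list were called. Pooled over the list, ends stood at 36.6% for WT, 43.6% for HET and 37.3% for HOM, so that HOM stood beside WT.

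Cd3e (chr9:45009163-45010663) stood at 52.5% for WT, 77.0% for HET and 55.1% for HOM, a difference of 24.5 points (17.3 to 31.4). Zap70, the kinase that carries the signal of the T cell receptor, stood at 59.3%, 80.1% and 61.3%, a difference of 20.8 points (14.2 to 27.3). HET was the highest library at both genes, and HOM stood near WT. The coreceptor gene Cd8b1 stood at 66.1%, 81.3% and 68.1%, a difference of 15.2 points that became 6.49 with equal weights. In gene bodies Cd27, which encodes a costimulatory receptor of T cells and memory B cells, was the called member, at 44.5% for WT, 58.8% for HET and 46.9% for HOM (14.3 points, 13.5 with equal weights; 0.545% of all bodies were called higher). The bodies of Cd28, Cd3d, Cd8a and Cd8b1 differed by 7.86 to 8.45 points and were not called, and that of Gata3 by -3.15 points.

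**Figure D3:**
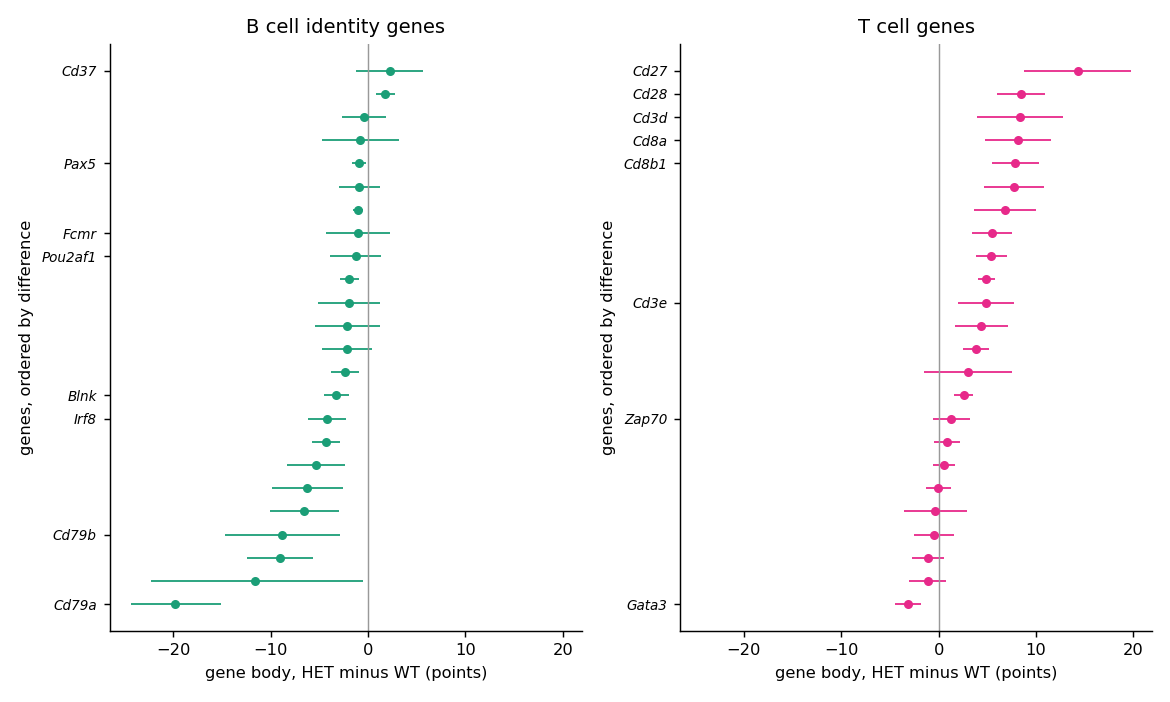
HET minus WT (points) in the bodies of 24 B cell identity genes (left) and 24 T cell genes (right); points are differences with reads summed and bars 95% counting intervals, and only genes named in the text carry a label. Of the B cell genes 22 lie below 0, with Cd79a lowest at -19.8 points, and of the T cell genes 18 lie above 0, with Cd27 highest at 14.3 points.

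The libraries come from bulk cells, in which a change in the share of a cell type and a change of methylation per cell cannot be told apart. For the lists of other blood cells the medians lay nearer to 0 at gene ends and in bodies, but not in the windows centred on transcription starts. There they were 3.54 points for 19 myeloid genes (15 higher), 3.36 for 12 erythroid and platelet genes (9 higher) and 2.28 for 13 NK cell genes (9 higher), beside 4.93 for 16 T cell genes (13 higher) and -6.27 for 16 B cell identity genes (2 higher). With equal weights these medians were 2.67, 1.43, 0.456, 8.51 and -4.56 points. Calls in the lists that follow stand beside 1.44% of all ends called higher and 1.29% lower, and 0.545% of all bodies called higher and 0.802% lower. NK cell genes had median differences of 0.281 points at ends and 1.09 points in bodies, with 1 end (Klrb1c) and 2 bodies (Klra1, Klrb1c) called lower and 0 called higher. With equal weights 12 of 17 NK cell bodies were higher (median 1.44 points), the body of Klrb1c turned from -10.2 to 1.02 points and that of Klra1 went from -10.3 to -4.98. The end window of Klrb1c does not hold the transcription start, where the difference was 1.06 points. Genes of myeloid cells and granulocytes had medians of -0.408 and -0.340 points. Of their 24 ends 11 were higher and 13 lower, with 2 called higher and 1 lower, and their pooled ends stood at 48.4% for WT, 52.7% for HET and 47.3% for HOM. Of the 2 called higher, S100a8, which encodes a calcium-binding protein of neutrophils, stood at 36.5% for WT, 59.7% for HET and 52.2% for HOM (23.2 points, 17.1 with equal weights), and the integrin gene Itgam stood at 64.1%, 75.5% and 70.6% (11.4 points, 5.13 with equal weights). The called myeloid body was that of the lysozyme gene Lyz2, 10.1 points higher with reads summed and -0.931 points with equal weights. Erythroid and platelet genes had medians of 1.14 and -1.09 points with 0 calls in either class. The part that the cell makeup of the preparations has in the differences between HET and WT was not tested.

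Among the other lists of B cell genes, receptor signalling had the most called ends. In this list 13 of 21 ends and 14 of 21 bodies were lower in HET, with medians of -0.790 and -1.09 points. Of its ends 3 were called lower and 0 higher, where 1.29% of all ends were called lower. With equal weights 1 of the 3 kept at least 10 points, that of a gene named above for B cell identity. The inhibitory Fc receptor gene Fcgr2b stood at 40.8% for WT, 23.3% for HET and 24.0% for HOM at its end (-17.5 points, -7.99 with equal weights). Pik3cd, the catalytic subunit of a lipid kinase of lymphocytes, stood at 67.4%, 57.2% and 78.0% (-10.2 points), and its window does not hold the transcription start, where the difference was 1.34 points. In the list of subsets and homing, Cxcr5, the receptor that guides B cells into follicles, stood at 59.2%, 43.8% and 50.9% (-15.4 points, -12.0 with equal weights). Tlr9, a sensor of unmethylated CpG DNA, stood at 21.3%, 34.6% and 18.0% (13.3 points, 2.77 with equal weights), and at its transcription start, outside this window, the difference was -4.12 points. Germinal centre and plasma cell genes had 0 calls at ends and 1 in bodies, Tnfrsf13c, the BAFF receptor gene, at 55.4%, 40.4% and 45.5% (-14.99 points, -7.13 with equal weights).

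Lymphoma genes that have been linked to KMT2D stood near 0 as a group. The median over 19 genes was 0.195 points at ends and 0.229 points in bodies, with 1 end called higher and 1 lower and 0 bodies called. Klhl6, which encodes a subunit of a ubiquitin ligase in B cells, stood at 21.9% for WT, 9.35% for HET and 12.2% for HOM at its end, a difference of -12.5 points that shrank to -1.63 with equal weights. Tnfrsf14, the HVEM receptor gene, stood at 29.6%, 40.4% and 25.2% (10.8 points, 9.07 with equal weights). The list of H3K4 methyltransferases and partners of KMT2D had 0 calls, with medians of 0.237 points at 18 ends and 0.169 points in 18 bodies. In bodies, the paralogue Kmt2e stood at 68.9% for WT, 60.1% for HET and 56.2% for HOM, and Men1, a partner of other H3K4 methyltransferases, at 53.7%, 61.0% and 53.2%, and neither was called. Genes of the DNA methylation machinery had 0 calls at 21 ends (median 0.718 points) and 2 in bodies, the methyl-CpG-binding genes Mbd4 (63.1%, 50.7% and 56.7%, -12.3 points) and Mbd3 (73.6%, 62.8% and 68.1%, -10.8 points), which shrank to -3.97 and -1.42 points with equal weights.

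Lists of genes outside the blood lineages had medians within 1 point of 0 at gene ends. These were -0.0269 points for AP-1 and immediate early genes, 0.610 for developmental regulators, 0.170 for tumour suppressors, -0.526 for imprinted genes, 0.159 for germline genes and 0.120 for housekeeping genes. Each of these lists had at most 1 end called in a direction. The calls that held with equal weights were Gnas, an imprinted gene of a G protein subunit (36.0% for WT, 46.9% for HET and 34.9% for HOM), and Tdrd1, a germline gene of the piRNA pathway (72.0%, 85.5% and 61.1%). The tumour suppressor gene Rassf1 differed by 13.5 points with reads summed and 0.977 with equal weights, the homeobox gene Lhx2 by 10.5 and 2.99, and the imprinted gene Nap1l5 by -13.6 and -6.99. In bodies the medians ran from -0.671 points for germline genes to 1.47 points for housekeeping genes, and the called member was Gstp1, a detoxification gene (74.0%, 62.3% and 65.4%, -11.7 points).

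Low-methylated regions, which by definition lie outside CpG islands and their borders of 500 bp, held large single differences. In Pik3c2g, a gene of a lipid kinase, a region of 5 CpGs (chr6:139836815-139837194) stood at 66.1% for WT, 11.5% for HET and 0% for HOM, a difference of -54.6 points (-66.1 to -40.3). In Trim14, which encodes an adaptor of antiviral signalling, a region of 24 CpGs (chr4:46534408-46534770) stood at 6.53%, 56.1% and 40.5%, a difference of 49.6 points (44.5 to 54.3). The direction of HET was shared by HOM at both regions, and both were still called with linked counts. A region 29740 bp from the nearest end of 4930571K23Rik (chr7:125400631-125400876) stood at 67.1%, 17.5% and 64.8%, so that HET alone was low there. Regions near Slc2a5 (chr4:150119161-150119296; 16.3%, 64.3% and 43.2%) and near Lemd2 (chr17:27179669-27180036; 16.9%, 65.8% and 56.6%) were high in HET and HOM. Regions inside protein-coding genes (32767) and outside (31523) had mean differences of 0.254 and 0.238 points.

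The mean over low-methylated regions depends on which libraries define them. They were found from the mean of WT and HET, so a region low in either could enter. When they were found from HOM alone, the mean difference was -0.354 points. HOM is not among the libraries compared but carries the mutation of HET, so this choice is not neutral either. Among the regions found from WT and HET, HET minus WT was -0.305 points where HOM stood at 0 to 10%, and 1.39 points where HOM stood at 40 to 50%. When all 3 libraries were used to find the regions the mean difference was 0.0975 points.

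The small loss in HET was uneven over the chromosomes. On chromosome 6 the 28549 tiles differed by -1.40 points on average, with 108 called higher and 999 lower. Over all autosomes, 2376 of 463541 tiles were called higher and 5879 lower. On chromosomes 17, 8, 7, 4 and 11 tiles differed by -1.09, -1.06, -1.05, -1.02 and -1.01 points. Chromosome 16 differed by -0.0774 points, and chromosome 9 by 0.0170 points with an interval that included 0 (-0.0199 to 0.0538). On chromosome 9, 199 of 23847 tiles were called higher and 93 lower. Without chromosome 6 the mean over tiles was -0.612 points. With equal weights chromosome 6 was still the lowest, at -1.14 points, but the chromosomes nearest to 0 changed: chromosome 12 went from -0.609 to -0.0470 points, chromosome 9 turned to -0.168 and chromosome 16 stood at -0.159.

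**Figure D4:**
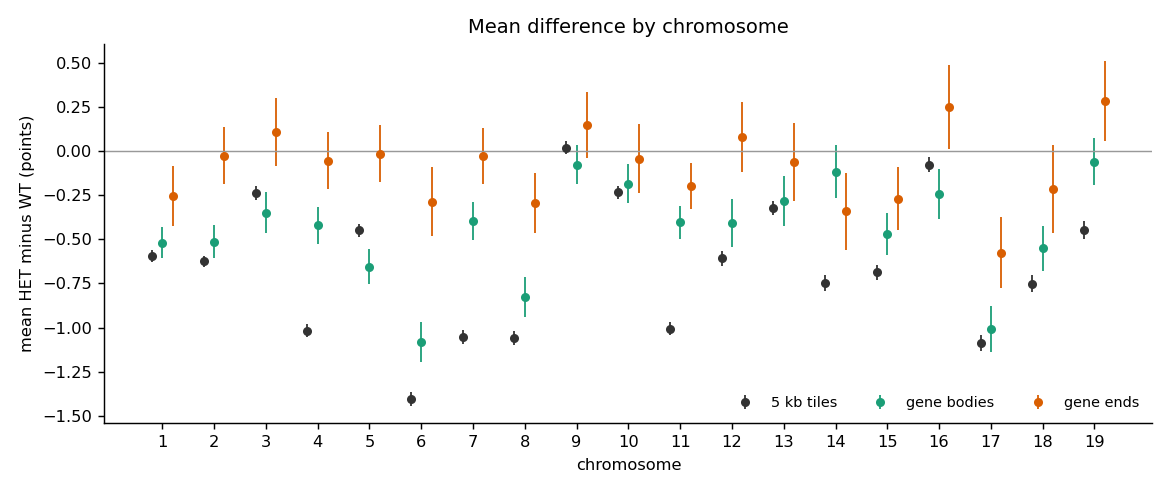
Mean HET minus WT (points) on each autosome for 5 kb tiles, gene bodies and gene ends, with 95% counting intervals as bars. Tiles are lowest on chromosome 6 (-1.40 points), and on chromosome 9 their interval includes 0.

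Within chromosomes part of the calls lay in runs of neighbouring megabases. Of 2370 megabases with at least 100 tiles, 1938 had a mean difference below 0. Runs of megabases with a mean difference of at least 3 points numbered 36 in the lower direction and 4 in the higher direction. The lower runs covered 74 Mb and held 1518 of the 5879 tiles called lower, and 35 called higher. The higher runs covered 7 Mb and held 157 of the 2376 tiles called higher, and 2 called lower. The runs were chosen by these same tile differences, which favours 1 direction of calls within each, and most calls lay outside them. Chromosome 6 held 7 of the lower runs, 17 Mb with 430 tiles called lower. The run at chr4:76000001-81000000, which holds the melanocyte gene Tyrp1, stood at 82.1% for WT, 76.4% for HET and 75.7% for HOM, a difference of -5.62 points (-5.90 to -5.35). The run at chr6:131000001-137000000, which holds a cluster of bitter taste receptors, stood at 78.9%, 73.3% and 71.9%, a difference of -5.58 points. The run at chr4:54000001-56000000 with the transcription factor gene Klf4 stood at 85.0%, 79.5% and 80.1%, and that at chr11:30000001-32000000 at 80.8%, 75.6% and 75.4%. With reads summed, HET stood within 2 points of HOM in each of these 4 runs, and below WT by more than 5 points. With equal weights the differences were -4.85, -3.22, -5.04 and -3.03 points, in the same order.

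Chromosomes 6, 4 and 8 also held most of the tiles with few HET reads and most of the CpGs read as methylated in WT and as unmethylated in HET. The ratio of HET to WT reads, relative to the library totals, was below 0.5 in 625 of 436228 tiles with at least 100 reads in WT, of which 161 lay on chromosome 6, 88 on chromosome 4 and 73 on chromosome 8, and above 2 in 60 tiles. In the NK gene complex of chromosome 6, the bodies of Klra6, Klra4, Klra8, Klra9 and Klra10, which encode lectin-like receptors of NK cells, had such ratios. Klra6 held 372 reads of WT, 155 of HET and 0 of HOM, and Klra10 held 200, 84 and 0. Read numbers of HET lay between those of WT and HOM at these genes. Of the 33 genes of the complex with at least 30 reads in WT, 26 were less methylated in HET, 15 of them with an interval below 0, and 2 of the others had an interval above 0. Over all 18338 gene bodies 59.5% were lower in HET, with 4519 intervals below 0 and 2339 above 0. With equal weights the differences of the called bodies of the complex shrank or turned. They went from -10.2 to 1.02 points for Klrb1c, from -18.6 to -7.45 for Klri1 and from -14.6 to -13.9 for Klra10. Single CpGs at or below 10% in 1 library and at or above 80% in the other, amid methylated neighbours, numbered 937. Of these, 879 were low in HET and 58 in WT, and 399 lay on chromosome 6, 291 on chromosome 8 and 79 on chromosome 4. The counts cannot tell an unmethylated cytosine from a thymine in the DNA itself at these CpGs, and which of them applies was not tested. Tiles in the 21 megabases with at least 10 such CpGs differed by -2.11 points on average, and tiles elsewhere by -0.647 points. The part of these tiles and CpGs in the lower levels of HET was not tested.

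The greatest differences among tiles lay in such blocks or in places of uneven read depth. A tile in Grm7, a glutamate receptor gene (chr6:111305001-111310000), stood at 85.9% for WT, 36.0% for HET and 42.9% for HOM (-49.9 points, -22.6 with equal weights). The tile 78387 bp from Rasd2 turned from -57.1 to 22.6 points with equal weights, and the tile 16384 bp from Gtpbp4, with 1533 reads in WT and 450 in HET, from 52.3 to -1.37 points.

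The immunoglobulin heavy chain locus lay in the widest of the runs with higher methylation in HET, 4 Mb of chromosome 12. Segments of the locus are joined by recombination in developing B cells. The run reached past the locus: the megabase at chr12:116000001-117000000, nearly all of it beyond the locus, stood at 76.8% for WT, 80.1% for HET and 73.0% for HOM, a difference of 3.30 points with 23 tiles called higher and 0 lower. Over 409 tiles (chr12:113258768-116009954) the mean was 68.4% for WT, 75.5% for HET and 65.7% for HOM, a difference of 7.08 points (6.49 to 7.66), with 68 tiles called higher and 2 lower. With equal weights the difference was 3.89 points. Over all autosomes, 2376 of the 463541 tiles tested were called higher and 5879 lower. The 351 tiles of the variable segments stood at 67.3%, 75.2% and 64.5%, a difference of 7.92 points (7.27 to 8.57), with 60 called higher and 0 lower. With equal weights the difference in the variable segments was 4.22 points. The 46 tiles of the constant, joining and diversity segments stood at 73.5%, 76.2% and 71.9%, a difference of 2.63 points (1.33 to 3.94; 2.61 with equal weights). HET was the highest library in both parts, and HOM stood below WT.

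The other receptor loci did not show such a gain. The kappa light chain locus differed by 0.341 points over 604 tiles (-0.0322 to 0.715), and the lambda locus by -1.52 points over 44 tiles (-2.97 to -0.0656). The T cell receptor beta, alpha and gamma loci differed by -0.0953, 0.262 and -0.795 points, each with an interval that included 0.

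**Figure D5:**
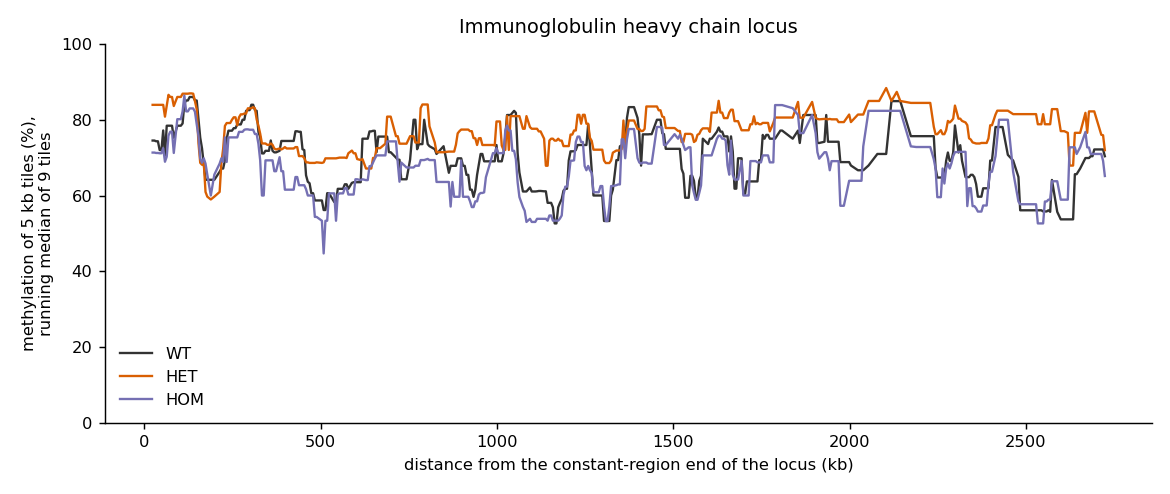
Methylation (%) of 5 kb tiles along the immunoglobulin heavy chain locus, as a running median over 9 tiles, against the distance (kb) from its constant-region end, 1 line per library (WT, HET and HOM). HET lies above WT over most of the variable segments, where the means are 75.2% and 67.3%.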

How the data were processed

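Splenic B cells were assayed by bisulfite sequencing of the whole genome. The table the authors deposited gives, per the file headers, 2 raw counts for each CpG, the reads that call it methylated and the reads that cover it, without normalization. Per the submitters' processing notes, the tools include Bismark, Bowtie2, Picard 1.91 and Trim Galore 0.2.8, and also MethylDackel, BWA 0.7.13 and Picard 2.3.0, with build mm10. Which of them made the B cell columns is not stated by the sources used here. The labels' protocols state 200 ng of DNA, shearing to about 800 bp and paired reads of 150 bp. The table has 0 further columns of samples.

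A level is the sum of methylated counts over the sum of covering counts in a region. Gene spans were those of RefSeq on GRCm38.p6, in a table without strand or exons, so no region was assigned to an exon, an intron or an untranslated region. Each gene end is the CpG-richer end of a protein-coding gene, 1000 bp outside to 500 bp inside, and need not hold the transcription start. Gene bodies exclude these windows. Positions were checked against RefSeq promoter sequences, where all 395568 CpGs of the table fell on CG. CpG islands were derived from CpG positions alone. A low-methylated region has 4 or more CpGs, spans 100 bp or more and has a running level over 3 CpGs under 50% in the mean of WT and HET. Intervals are Wilson's for levels, Newcombe's for differences and normal for means over regions. The level minimum of 30 CpG reads sets the precision of single regions.

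The planned count model over replicates could not be fitted with 1 library a side, and differences with counting intervals and Fisher's exact test took its place. The work used Python 3.11.15 with numpy 2.4.6, pandas 2.3.3, scipy 1.17.1, numba 0.67.0 and matplotlib 3.10.9. Calling was tested on simulated counts drawn independently, so that check does not cover linked CpGs or variation between libraries. Fisher's exact test compares reads of 2 libraries. Named are Kmt2d, the 5 greatest differences in each direction for each class among calls with at least 60 reads in both libraries, up to 10 genes in each direction still called with linked counts, and at most 4 called members per list of 17 gene lists. Other genes were named after their values had been seen. Some regions that the naming rule selects are not reported here. Members, lists and the comparison itself were chosen with earlier results of these data known. Alternatives changed the read minimum, the size of difference, the scaling, the weighting of CpGs, the windows and the region limits.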

Additional observations from a re-analysis of the deposited data

How the results depend on the processing

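No paired analysis was possible because each genotype has 1 pair of columns, and for the same reason no replicate could be left out. For each alternative named below the cause of the change was not tested. With a difference of at least 20 points, 73 gene ends, 13 gene bodies, 1345 low-methylated regions and 991 tiles were called, and with linked counts, each divided by the CpGs one read spans, 2, 43, 19 and 563. Calls that also differed by 10 points with every CpG weighted equally, an alternative chosen after seeing the data, numbered 169 gene ends, 55 gene bodies and 3006 tiles. With windows of 500 bp on each side 292 gene ends were called, with a running level below 30% 734 low-methylated regions, and 3009 tiles of 10 kb. With at least 100 CpG reads the mean difference was -0.0371 points at gene ends and 0.376 in low-methylated regions. With HET scaled to an equal level far from islands it was 0.186 at gene ends, 0.133 in bodies, 0.428 in low-methylated regions and 0.00136 in tiles. Pooled over reads it was 0.282, -0.497, 0.316 and -0.497. Transcription starts gave -0.0148. Without chromosome 6 it was -0.435 in bodies and -0.612 in tiles. Segmentation on HOM gave -0.354 points for low-methylated regions, on all 3 libraries 0.0975, and a limit of 30% gave 0.113. For tiles, equal weights gave -0.556, tiles of 10 kb -0.638, and leaving out the megabases rich in CpGs of opposite state, chosen after seeing the data, -0.647. In all, 5 such values turned their direction, 28 moved otherwise and 39 stayed.

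Among named gene ends and bodies, equal weights turned Ccl27a to -1.77 points, Abhd11 to 0.331, Tuba1a to 1.62, Bet1l to -0.295, Noa1 to -1.05, Lars2 to -1.33, the body of Klrb1c to 1.02 and Lyz2 to -0.931. Transcription starts turned Pnliprp1 to -0.808, Pik3cd to 1.34, Tlr9 to -4.12 and the end of Klrb1c to 1.06. Windows of 500 bp turned Pik3cd to 6.59 and Klhl6 to 0.282. The naming alternatives were chosen after seeing the data. A mean of 9.18 reads per CpG in WT limits what single CpGs and short regions can show.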
